A study of Ovis aries with 12 samples.

Results

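A set of 7 rows of a sheep gene count table was described, listed as the 7 subunits of respiratory complex I that mitochondrial DNA encodes. They were chosen by ID: ENSOARG00000000006, ENSOARG00000000010, ENSOARG00000000025, ENSOARG00000000027, ENSOARG00000000028, ENSOARG00000000032 and ENSOARG00000000033, which are 7 of the 25197 gene IDs and are called rows 6, 10, 25, 27, 28, 32 and 33 here. The count table pairs no ID with a gene name, and the names table at hand (RefSeq, assembly ARS-UI_Ramb_v3.0) pairs 0 of its genes with an Ensembl sheep ID. The subunit names therefore rest on order alone. The first 37 IDs were set beside the 37 mitochondrial genes in their order on the genome, which would put ND1, ND2, ND3, ND4L, ND4, ND5 and ND6 at these rows. That placement was not established here, so results are given by row, and a subunit name is used below only as a proposal.

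Complex I, NADH:ubiquinone oxidoreductase, takes electrons from NADH in the mitochondrial inner membrane, passes them to ubiquinone and pumps protons. Most of its subunits are encoded in the nucleus, and the ND subunits encoded in mitochondrial DNA form the core of its membrane arm. Mitochondrial DNA is transcribed from both strands as long precursors that are cut into single mRNAs, mostly at the tRNAs between them, so the levels of these mRNAs depend on processing and decay as well as on transcription. ND6 is the ND gene read from the light strand, and ND4L and ND4 share 1 mRNA.

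Libraries were made from mitral valve tissue, the anterior leaflet, of 12 adult sheep of the Dorset breed, 1 per animal; the design text counts 13 animals, but its group sizes add to 12. There were 3 libraries from the time before myocardial infarction (pre-MI; replicates 2, 3 and 4). The other animals had branches of the circumflex coronary artery tied off for good, which infarcts the posterior wall of the left ventricle. By echocardiography some of them then showed IMR (ischemic mitral regurgitation), in which blood leaks back into the atrium, and the design text calls it low-grade. At 4 weeks after infarction there were 2 animals without IMR (replicates 1 and 5) and 3 with IMR (replicates 2, 3 and 4), and at 8 weeks 2 without IMR (replicates 3 and 4) and 2 with IMR (replicates 1 and 2). No sham-operated group was listed, so time, infarction and surgery cannot be told apart in comparisons with pre-MI. The leaflet was analysed as bulk tissue, in which fewer cells of a type and less RNA per cell cannot be told apart. Markers of other cell types could not be checked without gene names, so their part in the results was not tested.

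The counts followed the proposed placement at most of the 37 rows. Of the 22 rows that would fall on tRNAs, 21 had 0 counts in every library, and of the 15 that would fall on mRNAs or ribosomal RNAs, 14 had counts in all 12 libraries. Rows 37 and 27 went against it. Row 37, which would be a tRNA, had 99 to 13901 counts per library. Row 27, which would be ND4L, had 1 count in all, in 8-week replicate 4 without IMR, while its neighbour row 28 had 14235 to 142989 counts per library.

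Taking 3 counts as the upper limit for an observed 0, row 27 was at most 0.141 to 0.337 CPM (counts scaled to the same TMM-adjusted library size) in the libraries without a count. Against row 28 in the same library, this floor came to 0.0211% or less. Row 27 fell under the filter on low counts, so 6 of the 7 rows were tested, and no ratio to row 27 was formed.

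The 6 rows with counts were high together in 3 libraries. The 7 rows took 2.15% of all counts in pre-MI replicate 2, 3.08% in 8-week replicate 4 without IMR and 2.55% in 8-week replicate 1 with IMR. In the other 9 libraries they took 0.324% to 0.915%, and 95% Wilson intervals were within ± 0.0094 percentage points of each share, for counting error only. These 3 libraries were also the ones in which the first 37 IDs together took most counts, 5.97% to 11.3% against 0.928% to 2.38% in the other 9. The first 37 IDs include the 7 rows, which held 27.3% to 41.1% of their counts, so the 2 shares are not independent. Library totals were 7768007 to 19175100 counts, and the 3 libraries lay inside that range, at 12673621 to 14707667 counts. The labels state a minimum RNA integrity for all samples, and values per library are not given in the sources used here. The libraries belonged to 3 different groups, and within pre-MI, 8 weeks without IMR and 8 weeks with IMR another animal of the same group had 0.915%, 0.392% and 0.793% of counts on the 7 rows.

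**Figure D1:**
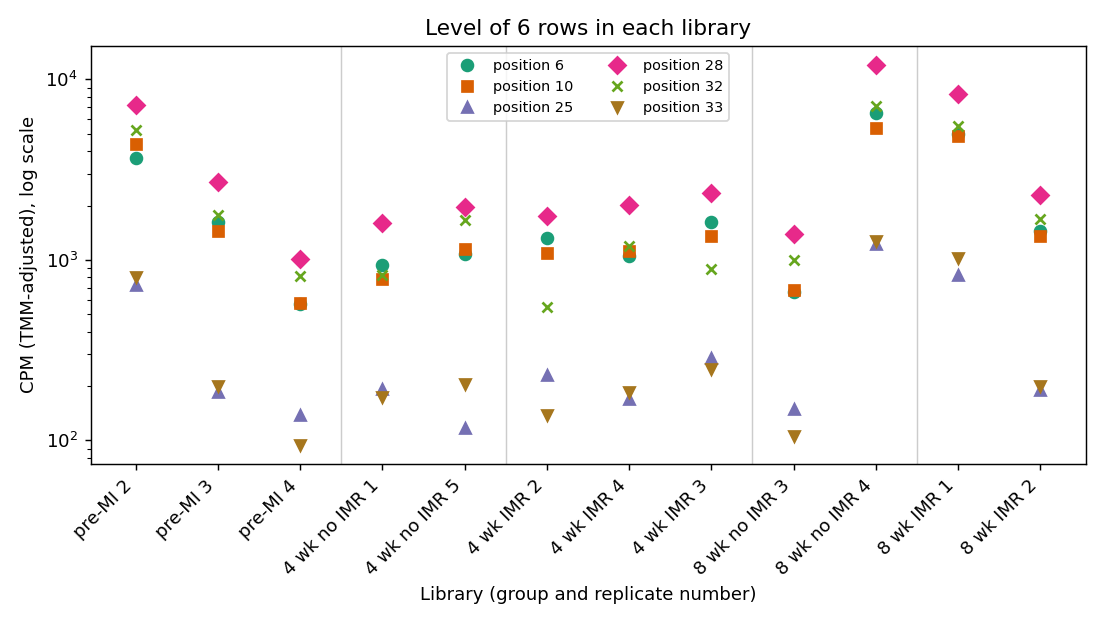
Level of each of the 6 rows with counts (CPM on the TMM-adjusted library size, log scale) in each of the 12 libraries, ordered by group. Every row is highest in pre-MI replicate 2, 8-week replicate 4 without IMR and 8-week replicate 1 with IMR, and CPM are not divided by gene length.

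Row 28, proposed as the proton-pumping subunit ND4, had the most counts of the 6 in every library. It had 7220, 2707 and 1016 CPM in pre-MI replicates 2, 3 and 4. At 4 weeks it had 1599 and 1962 CPM without IMR and 1749, 2341 and 2012 CPM with IMR, a narrow range beside the pre-MI one. At 8 weeks it had 1399 and 12033 CPM without IMR and 8355 and 2288 CPM with IMR. Pre-MI and 8-week libraries thus spanned both ends of the range, and the 4-week libraries lay between them. CPM is not divided by gene length, so levels are compared between libraries and not between rows.

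Row 32, proposed as ND5, another of the pumping subunits, had 5222, 1778 and 813 CPM in pre-MI replicates 2, 3 and 4. It had 827 and 1668 CPM at 4 weeks without IMR (replicates 1 and 5), and 546, 888 and 1194 CPM with IMR (replicates 2, 3 and 4). At 8 weeks it had 997 and 7131 CPM without IMR (replicates 3 and 4) and 5499 and 1685 CPM with IMR (replicates 1 and 2). Its lowest library was 4-week replicate 2 with IMR, where row 6, at 1320 CPM, was near its median of 1379 CPM over the 12 libraries.

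Row 6, proposed as ND1, which lies where the quinone site meets the membrane arm, had 3685, 1629 and 570 CPM pre-MI. It had 933 and 1079 CPM at 4 weeks without IMR, 1320, 1626 and 1050 CPM with IMR, 667 and 6521 CPM at 8 weeks without IMR, and 4961 and 1438 CPM with IMR. Row 10, proposed as the pumping subunit ND2, had 4406, 1447 and 573 CPM pre-MI. Its 4-week values were 786 and 1153 CPM without IMR and 1087, 1353 and 1122 CPM with IMR, and its 8-week values 677 and 5390 CPM without IMR and 4830 and 1351 CPM with IMR. Both rows had their lowest value in pre-MI replicate 4 and their highest in 8-week replicate 4 without IMR.

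The rows with the lowest counts of the 6 were row 25, proposed as ND3, and row 33, proposed as ND6, both small membrane subunits. Row 25 had 726, 186 and 139 CPM pre-MI, 192 and 118 CPM at 4 weeks without IMR and 231, 286 and 170 CPM with IMR. At 8 weeks it had 148 and 1231 CPM without IMR and 822 and 189 CPM with IMR. Row 33 had 808, 200.5 and 94.4 CPM pre-MI, 174 and 205 CPM at 4 weeks without IMR and 138, 249 and 186 CPM with IMR. At 8 weeks it had 106 and 1272 CPM without IMR and 1025 and 199.9 CPM with IMR. Row 33 followed the other rows in the 3 high libraries, and its range of 13.5-fold between the highest and lowest library was the widest of the 6.

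In the 3 high libraries the lowest value of each row was 2.26 to 3.25 times its highest value in the other 9. From the lowest to the highest library the rows spanned 9.4-fold (row 10) to 13.5-fold (row 33). The biological coefficient of variation within groups was 0.697 to 0.773 for the 6 rows, at percentiles 85.4 to 89.5 of all genes tested, where the median gene had 0.431. This is 1 value per row for all 5 groups, and the spread differed between groups. For row 28 the SD was 257 and 296 CPM at 4 weeks without and with IMR, beside means of 1780 and 2034 CPM. It was 3207 CPM beside 3647 CPM pre-MI, and 7520 beside 6716 CPM and 4290 beside 5322 CPM at 8 weeks without and with IMR. Row 32 varied more at 4 weeks, with SDs of 595 and 324 CPM beside means of 1248 and 876 CPM.

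The first comparison asked whether the rows differed between 4 weeks and pre-MI. All 6 had lower means at 4 weeks (n = 5) than pre-MI (n = 3). For row 32 the 4-week mean was 1025 ± 427 CPM (SD, n = 5) and the pre-MI mean 2605 ± 2318 CPM (SD, n = 3), a log2 fold change of -1.32 with a standard error of 0.71. The log2 fold changes of the other rows were -0.76 (row 6), -0.997 (row 10), -0.89 (row 25), -0.94 (row 28) and -0.95 (row 33), with standard errors of 0.72 to 0.83. None of the 6 passed, with an edgeR quasi-likelihood adjusted p of 0.927 for each. The smallest unadjusted p was 0.0925. Across all 14804 genes tested, 0% passed the adjusted threshold of 0.05, 4.74% had an unadjusted p under it and 4.34% had groups that did not overlap, while for the 6 rows each of these counts was 0. The median log2 fold change was -0.95 over the 6 rows and 0.0015 over all genes. These values rested on pre-MI replicate 2: without it the 6 rows ran from -0.31 to 0.37, 5 of them above 0, and without pre-MI replicate 4 they ran from -1.74 to -1.20, with 1 row at an unadjusted p under 0.05 in edgeR.

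At 8 weeks (n = 4) all 6 means were higher than pre-MI (n = 3), with log2 fold changes of 0.79 (row 6), 0.52 (row 10), 0.75 (row 25), 0.71 (row 28), 0.55 (row 32) and 0.82 (row 33) and standard errors of 0.76 to 0.89. For row 28 the 8-week mean was 6019 ± 5063 CPM (SD, n = 4) and the pre-MI mean 3647 ± 3207 CPM (SD, n = 3). The differences were smaller than the SD between animals of either group for each of the 6 rows. None of the 6 passed (edgeR adjusted p = 0.9999 for each, smallest unadjusted p = 0.326), and none had groups that did not overlap, where all genes gave 0%, 1.93% at an unadjusted p under 0.05 and 3.59% without overlap. The median log2 fold change was 0.73 over the 6 rows and 0.037 over all genes. Leaving out 8-week replicate 4 without IMR turned all 6 values below 0 (-0.55 to -0.34), leaving out 8-week replicate 1 with IMR gave -0.080 to 0.21, and leaving out pre-MI replicate 2 gave 1.56 to 2.14.

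Between 8 weeks (n = 4) and 4 weeks (n = 5) the mean of row 32 was 3828 ± 2961 CPM (SD, n = 4) against 1025 ± 427 CPM (SD, n = 5), a log2 fold change of 1.87 (standard error 0.68). Row 33 had 651 ± 585 CPM (SD, n = 4) against 190 ± 40.7 CPM (SD, n = 5), a log2 fold change of 1.77 (standard error 0.79). The other log2 fold changes were 1.55 (row 6), 1.51 (row 10), 1.65 (row 25) and 1.65 (row 28). None of the 6 passed, each with an edgeR adjusted p of 0.676, and DESeq2 and both voom fits passed 0 of the 6 as well. Over all 14804 genes DESeq2 passed 23 in this comparison and both voom fits passed 0. In edgeR the unadjusted p of the 6 rows ran from 0.0190 to 0.0482. In that fit 6 of 6 were thus under 0.05, where 7.2% of all genes were and 0% passed the adjustment. Unadjusted p of the 6 rows ran from 0.00249 to 0.0148 in DESeq2 and from 0.00926 to 0.0324 in edgeR with 3 time groups. Each voom fit had 1 row under 0.05. In DESeq2 the adjusted p of the 6 rows was 0.210 to 0.348, and over all settings tried it ran from 0.210 to 0.999991.

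The 6 rows are not 6 independent observations, since they are high in the same libraries. At 8 weeks 2 of 4 libraries lay above every 4-week library for all 6 rows. For row 32, 8-week replicate 2 with IMR did too, at 1685 CPM against at most 1668 CPM. None of the 6 had groups that did not overlap, where 2.04% of all genes did. The number of rows with an unadjusted p under 0.05 was 0 without 8-week replicate 4 without IMR (log2 fold changes of 0.32 to 0.83), without 8-week replicate 1 with IMR (0.91 to 1.32) or without 4-week replicate 1 without IMR (1.32 to 1.78). Leaving out replicate 5 (no IMR), 2 (IMR) or 4 (IMR) of the 4-week animals left 1 such row, and leaving out replicate 3 of the 4-week IMR animals or of pre-MI left 3. All 6 rows stayed under 0.05 without pre-MI replicate 2 or without pre-MI replicate 4. Log2 fold changes were larger without 8-week replicate 3 without IMR (1.93 to 2.27) and without 8-week replicate 2 with IMR (1.83 to 2.17). Without the 3 high libraries together, the 6 values ran from -0.30 to 0.38, and 5 were below 0.

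**Figure D2:**
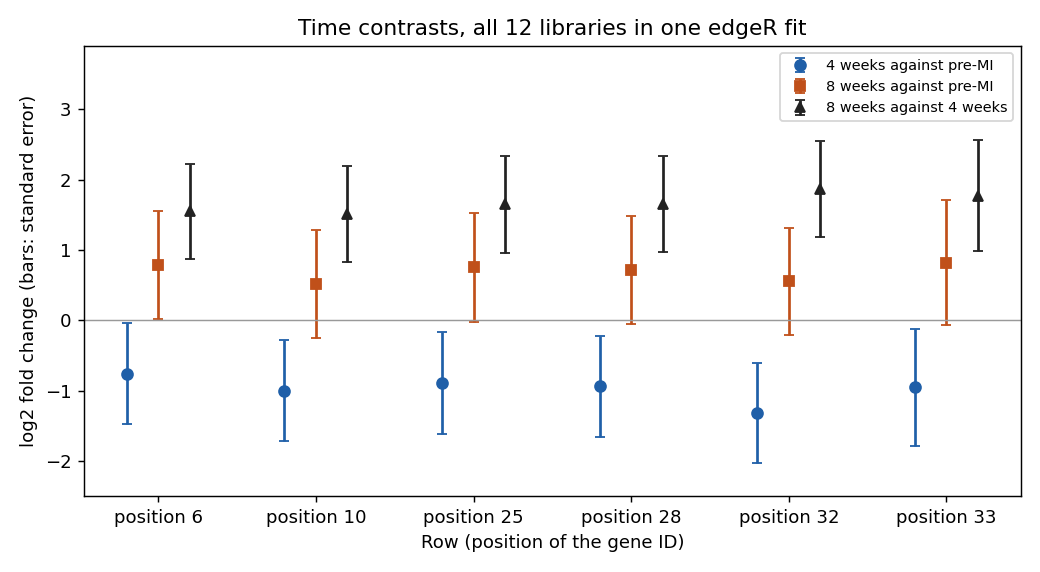
Log2 fold change of each of the 6 rows in the 3 time comparisons, from 1 edgeR fit of all 12 libraries, with bars of 1 standard error. Points lie below 0 for 4 weeks against pre-MI (-1.32 to -0.76) and above 0 for 8 weeks against pre-MI (0.52 to 0.82) and against 4 weeks (1.51 to 1.87), and no row passed the adjusted threshold in any of them.

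The 3 time comparisons share libraries, and the comparisons of 4 and 8 weeks with pre-MI share the same controls. Under the scaling factors tried in edgeR (RLE, upper quartile, library totals, and TMM without the first 37 IDs) each of the 6 rows kept its sign in all 3. Library totals without factors moved the median of all genes to -0.20 for 4 weeks and -0.10 for 8 weeks against pre-MI, and to 0.094 for IMR over both times. The 6 rows then ran from -1.35 to -0.89 at 4 weeks and from 0.43 to 0.74 at 8 weeks against pre-MI.

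Regurgitation was compared within time, with 5 animals with IMR and 4 without. Row 10 had a log2 difference of 0.16 (standard error 0.68), the highest of the 6, and row 32 had -0.34 (standard error 0.67), the lowest. Of the 6 rows, 3 were above 0 and 3 below. The model weighs both times equally; plain means over animals were lower with IMR for all 6, as for row 10 with 1949 CPM against 2002 CPM. None passed in edgeR (adjusted p 0.930 to 0.991, unadjusted p 0.616 to 0.934), and none had groups that did not overlap, where all genes gave 0%, 5.17% at an unadjusted p under 0.05 and 2.03% without overlap. Signs near 0 moved with the scaling: 5 rows were above 0 with library totals and 2 with TMM factors computed without the first 37 IDs. Leaving out 8-week replicate 4 without IMR put all 6 above 0 (0.65 to 1.32), and leaving out 8-week replicate 1 with IMR put all 6 below 0 (-0.89 to -0.44).

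Whether the difference with IMR was the same at both times was tested as an interaction, the IMR effect at 8 weeks minus that at 4 weeks. It ran from -1.01 (row 25, standard error 1.37) to 0.33 (row 32, standard error 1.33). None of the 6 rows passed in edgeR (adjusted p 0.955 to 0.991, smallest unadjusted p 0.475), where 0% of all genes passed and 3.35% had an unadjusted p under 0.05. Without 8-week replicate 4 without IMR all 6 values were above 0 (1.12 to 2.44), and without 8-week replicate 1 with IMR all 6 were below 0 (-2.43 to -0.76). With the animal number as a replicate block all 6 were below 0, at -6.16 to -3.99 (edgeR unadjusted p 0.120 to 0.294). The labels give the animals as separate, so the numbers need not pair them, and the block leaves fewer residual degrees of freedom. With standard errors above 1.3, effects of IMR that differed several-fold between the times were not detectable with these animals.

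The division of counts among the 6 rows varied less than their level. Row 28 took 31.7% to 35.8% of the counts on the 6 rows in the 12 libraries, row 10 took 16.1% to 21.4% and row 6 took 16.7% to 26.0%. Row 33 took 2.52% to 4.02% and row 25 took 1.90% to 4.55%. Relative to its mean, the share of row 25 varied most (coefficient of variation 24.9%), with row 32 next (23.1%). Row 32 had the widest range in percentage points, from 10.8% to 26.97%. Its share was lowest in 4-week replicate 2 with IMR (10.8%), 4-week replicate 3 with IMR (13.2%) and 4-week replicate 1 without IMR (18.3%), and highest in 4-week replicate 5 without IMR (26.97%). As 95% Wilson intervals these shares were within ± 0.468 percentage points, for counting error only.

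**Figure D3:**
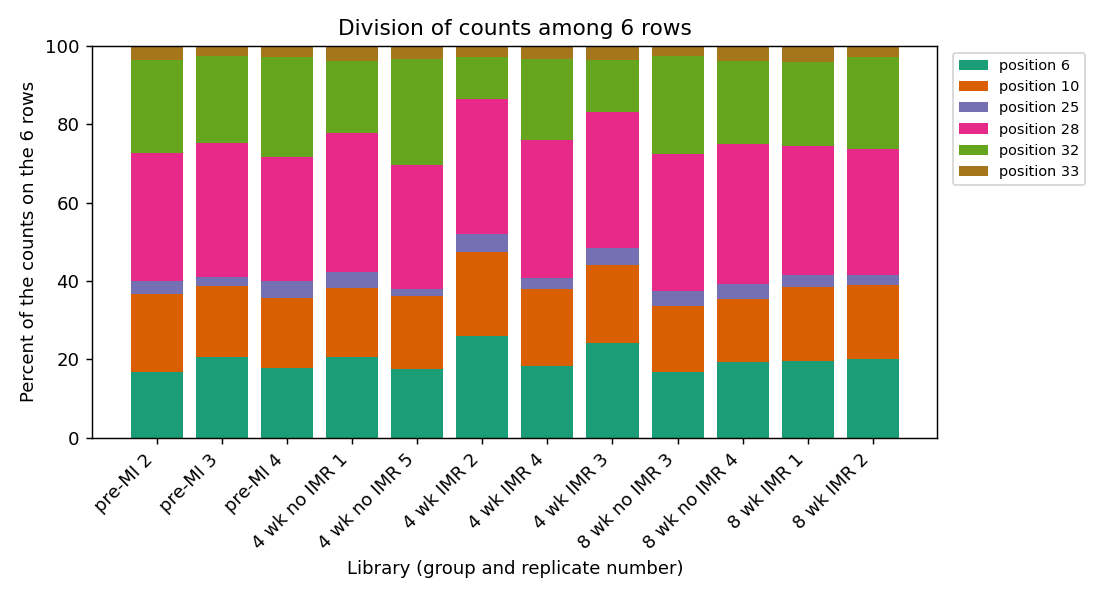
Percent of the counts on the 6 rows that falls on each row, in each of the 12 libraries. Row 28 stays between 31.7% and 35.8%, while row 32 runs from 10.8% in 4-week replicate 2 with IMR to 26.97% in 4-week replicate 5 without IMR.

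Counts on 1 row as a percent of counts on another need no scaling between libraries. Row 32 had 72.3%, 65.7% and 80.0% of the counts of row 28 in pre-MI replicates 2, 3 and 4. At 4 weeks it had 51.8% and 85.0% without IMR and 31.2%, 37.96% and 59.3% with IMR. At 8 weeks it had 71.3% and 59.3% without IMR and 65.8% and 73.6% with IMR. The 3 lowest values belonged to 4-week animals, 2 of them with IMR, and the highest to a 4-week animal without IMR, so the 4-week libraries spanned both ends. For 4 weeks with IMR (31.2% to 59.3%) the values lay below all 3 pre-MI values. The rows compared were chosen after these values were seen, so they are given without a test. Groups of 3 libraries can separate by chance, and how often other genes did so for these groups was not counted.

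The other rows kept closer ratios to row 28, though row 25 was not far from row 32 in this. Row 6 had 47.7% to 75.5% of its counts, with the highest values in 4-week replicates 2 (75.5%) and 3 (69.5%) with IMR, the libraries in which row 32 was lowest. Row 10 had 44.8% to 62.2%, and row 25 had 5.99% to 13.7%, a 2.28-fold range. Row 33 had 7.41% to 12.3%, a 1.66-fold range against 2.73-fold for row 32. The group means of row 33 over row 28 ran from 9.07% ± 2.12 (SD, n = 2) at 8 weeks without IMR to 10.7% ± 0.334 (SD, n = 2) at 4 weeks without IMR, and every group overlapped the pre-MI range of 7.41% to 11.2%.

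Rows 33 and 32 would be neighbours on opposite strands, ND6 on the light strand and ND5 on the heavy. Row 33 had 15.5%, 11.3% and 11.6% of the counts of row 32 in pre-MI replicates 2, 3 and 4. At 4 weeks it had 21.1% and 12.3% without IMR and 25.3%, 27.99% and 15.6% with IMR, and at 8 weeks 10.6% and 17.8% without IMR and 18.6% and 11.9% with IMR. The 3 libraries with the highest ratio were those in which row 32 took the smallest share of counts. The labelled library kit is not described there as strand-specific and the strand setting of the counting is not given in the sources used here, so reads from the opposite strand cannot be told apart.

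The log2 ratio of row 33 to row 32 averaged -2.36 at 4 weeks (n = 5) and -2.98 pre-MI (n = 3), a difference of 0.63, which a two-sided exact permutation test did not place beyond the spread between animals (p = 0.0893, adjusted p = 0.357, smallest possible p 0.0179). For 8 weeks against pre-MI the difference was 0.18 by exact permutation (p = 0.543, adjusted p = 0.543), and for 8 weeks against 4 weeks it was -0.45 (exact permutation p = 0.183, adjusted p = 0.365). With IMR against without, permuted within time, it was 0.29 (exact permutation p = 0.35, adjusted p = 0.467). These 4 tests form 1 family. The planned tests of row 27 over row 28 could not be made, since row 27 had 0 counts in 11 of 12 libraries.

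**Figure D4:**
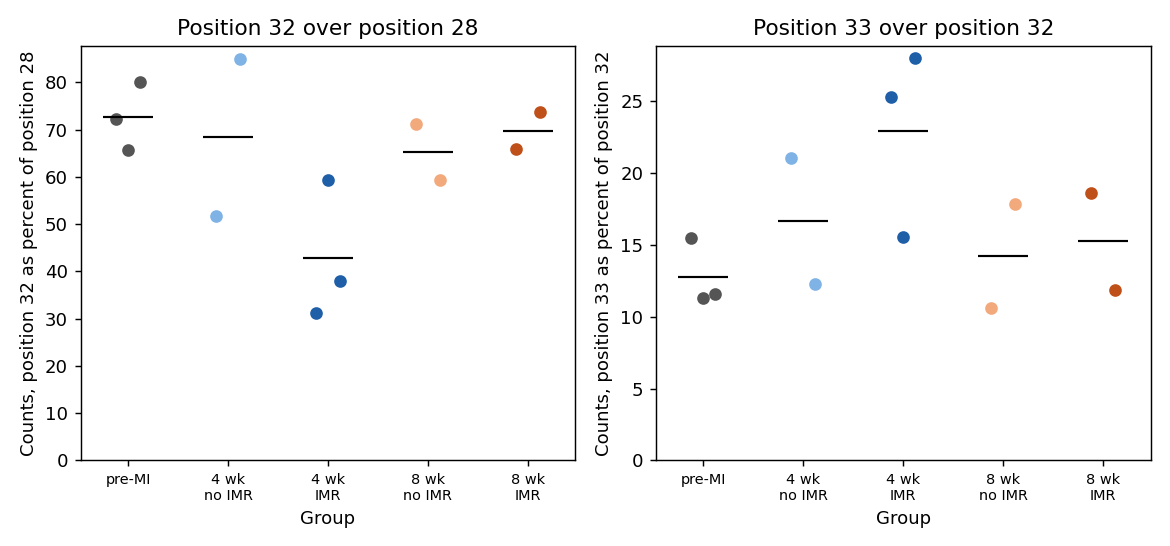
Counts on row 32 as a percent of row 28 (left) and on row 33 as a percent of row 32 (right), per library. Libraries are placed by group, with a line at each group mean. Row 32 enters both ratios, so the left and right values are not independent. Groups of 2 or 3 libraries can separate by chance, and no test compared 4 weeks with IMR alone with pre-MI. The 4-week groups hold the lowest (31.2%) and highest (85.0%) values on the left and the highest (27.99%) on the right, and all groups overlap the pre-MI libraries except 4 weeks with IMR, whose values lie below them on the left (31.2% to 59.3% against 65.7% to 80.0%) and just above them on the right (15.6% to 27.99% against 11.3% to 15.5%).

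Across the 12 libraries the 15 pairs of the 6 rows had Pearson correlations of log2 CPM from 0.824 to 0.991 and Spearman correlations from 0.462 to 0.993, as a description, since all rows share the library scaling. By Pearson correlation the 5 pairs with row 32 ran from 0.824 to 0.936 and the other 10 from 0.934 to 0.991. Spearman correlations did not set row 32 apart alone, and the lowest was between rows 25 and 32. Row 25 had 0.727 with row 10, 0.748 with row 28 and 0.685 with row 33, where row 32 had 0.867, 0.860 and 0.825. With row 6 the order was the other way, at 0.804 for row 25 and 0.790 for row 32. Without the 2 libraries farthest from the median (8-week replicate 4 without IMR and 8-week replicate 1 with IMR) the Pearson correlations ran from 0.573 to 0.991.

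The genes most like the rows were taken as those with the highest Pearson correlation of log2 CPM with the summed CPM of the 7 rows over 12 libraries. The sum holds the rows themselves, so their own places in that order are partly fixed and are not given. Of the 20 most alike among 14804 genes, 5 were other rows of the first 37 IDs. Row 35 (r = 0.996) and row 19 (r = 0.988) were the most alike of these. Rows 37, 4, 2 and 21 of the first 37 IDs were less alike (r = 0.907, 0.858, 0.790 and 0.599). Outside the first 37 IDs the most alike were ENSOARG00000008399 (r = 0.970, or 0.929 without the 2 farthest libraries) and ENSOARG00000006907 (r = 0.968, or 0.931). In the 3 high libraries ENSOARG00000006907 had 218, 329.6 and 185 CPM, and in the other 9 it had 6.45 to 41.9 CPM.

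The 7 rows took 27.3% to 41.1% of the counts on the first 37 IDs. Their share was lowest in 8-week replicate 4 without IMR, where row 16 alone, which would be COX1, a core subunit of cytochrome c oxidase, had 555953 counts, against 399002 counts on the 7 rows together. In each of the other 11 libraries it was 33.8% or more. Of the other 9 rows of the first 37 that were tested, 9 were above 0 for 8 weeks against 4 weeks, with a median log2 fold change of 1.73 beside 1.65 for the 6 rows. For 4 weeks against pre-MI their median was -0.94 beside -0.95, with 1 of the 9 above 0. For 8 weeks against pre-MI it was 0.81 beside 0.73, with 8 of the 9 above 0. The median of the 6 rows was thus close to that of the other 9 in all 3 time comparisons. In the IMR comparisons the medians lay further apart, at -0.0070 beside -0.16 over both times and -0.40 beside -0.79 for the interaction. Whether the 6 rows differ from the other 9 was not tested. Single rows of the 9 could lie apart: row 21 had 54.5 CPM in pre-MI replicate 2 and at most 12.1 CPM in any other library.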

How the data were processed

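The authors deposited unnormalized read counts in 1 table (25197 Ensembl IDs, 12 libraries), and each library's column matched 1 sample by title. The submitters' processing notes name Bowtie2 2.2.3, TopHat2 2.0.12 and HTSeq 0.6.1. Genome build, annotation, strand setting and the treatment of overlapping genes are not given in the sources used here, so counts of neighbouring or overlapping genes are uncertain. Per the labels' protocols, poly-A RNA was used.

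Counts were fitted across all genes in edgeR 4.0.16 (R 4.3.3): filterByExpr on the 5 groups kept 14804 of 25197 genes, TMM factors scaled the libraries, and a robust quasi-likelihood model of 5 group means (7 residual degrees of freedom) gave 5 contrasts, adjusted by Benjamini-Hochberg over all genes. Contrasts over time weigh the groups with and without IMR equally. A standard error is the log2 fold change divided by the square root of F. CPM use the TMM-adjusted library size; log2 CPM use a prior count of 2, or CPM plus 1 for pairs of rows. Ratios used raw counts and exact permutation tests over every arrangement, written for this purpose and checked against SciPy 1.17.1 on a made-up case. The edgeR fit was also run on simulated counts, for 4 weeks against pre-MI only. Each simulated gene had 1 spread for all groups, so groups of unequal spread, as seen here, were not covered. Alternatives were DESeq2 1.42.0, limma 3.58.1 voom, other scaling and filters, the replicate block, 3 time groups and leaving out libraries. All 7 rows were named by rule, and the most alike genes by correlation. The members and lists were chosen with earlier results of these data known. Planned lists of nuclear complex I genes and cell type markers were not used, as no table pairs the IDs with symbols. No mitochondrial sequence was used here. Figures were drawn with matplotlib 3.10.9. Animals were separate, per the labels, so each library counted as 1 sample. No 2 libraries had counts closer than a chi-square of 47.5 per degree of freedom. That value can only show that no library is a copy of another, not that the animals differ.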

Additional observations from a re-analysis of the deposited data

Results flagged for a closer look

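Each row's CPM, its share of the counts on the 6 rows, the share of counts on the 7 rows and the ratio of row 33 to row 32 were examined for a library far from the others at 4 and at 8 weeks, by the gap to its nearest neighbour over the whole range. In 28 such comparisons 1 stood out, where chance gives 1.4. Row 28 (ENSOARG00000000028) took 31.7% of the counts on the 6 rows in 4-week replicate 5 without IMR, below the 34.5% to 35.4% of the other 4-week libraries, with a gap of 0.746 of the range against a critical value of 0.71. Row 32 took its highest share, 26.97%, in the same library, which also had the lowest total of the series (7768007 counts).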

How the results depend on the processing

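No row passed the adjusted threshold in any comparison under any alternative, so the counts of rows past it stayed at 0. Over all genes, DESeq2 passed 41 genes at 4 weeks and 2 at 8 weeks, each against pre-MI, and 23 for 8 against 4 weeks, edgeR without 4-week replicate 4 with IMR passed 1 in the last, and every other fit passed 0. The setting without the 3 high libraries (pre-MI replicate 2, 8-week replicate 4 without IMR and 8-week replicate 1 with IMR) was chosen after seeing the data. It leaves 1 animal in each 8-week group, assumed to vary like the others. The replicate block (animal number) also passed 0 rows. Deviations of same-numbered libraries from their group means had correlations of -0.499 to 0.472 over 10 pairs, with a mean of -0.061 and 3 pairs above 0.1. Deviations within groups of 2 or 3 libraries depend on each other. These correlations therefore cannot decide whether the numbers pair the animals, which the labels give as separate. Under the block the 6 rows ran from -2.54 to -1.80 for 4 weeks and from -0.15 to 0.18 for 8 weeks against pre-MI, and 1 row, in place of 6, had an unadjusted p under 0.05 for 8 against 4 weeks, as also under voom with and without sample weights. The filters gave 5.

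Signs changed as follows in the time comparisons, for row 32 and for the ratio; the cause was not tested. For 4 weeks against pre-MI, voom with sample quality weights gave 0.14 (row 6), 0.011 (row 10), 0.030 (row 25) and 0.20 (row 33). Without the 3 high libraries row 25 had 0.11 and row 33 had 0.27 in that comparison. For 8 weeks against pre-MI the replicate block gave -0.11 (row 10) and -0.15 (row 32), and without the 3 high libraries the values were -0.18 (row 6), -0.088 (row 10), -0.066 (row 28), -0.0096 (row 32) and -0.030 (row 33). For 8 weeks against 4 weeks without those libraries they were -0.15 (row 6), -0.083 (row 10), -0.078 (row 25), -0.0056 (row 28) and -0.30 (row 33). Row 32 had 0.34 under the replicate block and 0.11 without the 3 libraries for IMR over both times, and -3.99 under the block for the interaction. Of the other rows in the IMR comparison, rows 28 and 33, below 0 in the edgeR fit, were above 0 under the block (0.33 and 0.40), under voom with weights (0.12 and 0.13) and without them (0.14 for both), and without the 3 libraries (0.43 and 0.44). In the interaction, 5 rows were above 0 without the 3 libraries, in place of 1, with a range of -0.16 to 1.31. Row 33 was above 0 there under voom with weights (0.17) and without (0.33), and row 10 under voom without weights (0.10). The log2 ratio of row 33 to row 32 for 8 weeks against pre-MI was -0.028 without the 3 libraries.

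Leaving out 1 library at a time gave, for 4 weeks against pre-MI, -1.20 to 0.075 (row 6), -1.45 to 0.087 (row 10), -1.27 to 0.22 (row 25), -1.38 to 0.032 (row 28) and -1.41 to 0.37 (row 33). For 8 weeks against pre-MI it gave -0.41 to 1.63 (row 6), -0.55 to 1.60 (row 10), -0.34 to 1.87 (row 25), -0.40 to 1.68 (row 28), -0.44 to 1.56 (row 32) and -0.51 to 2.14 (row 33). For 8 weeks against 4 weeks each of the 6 rows stayed above 0, and their median ran from 0.45 to 2.07. For IMR over both times leaving out 1 library gave -0.44 to 1.22 (row 10) and -0.89 to 0.65 (row 32), and for the interaction -2.43 to 1.12 (row 25) and -0.76 to 2.29 (row 32). The ratio of row 33 to row 32 kept its sign in each of these 4 comparisons, at 0.50 to 0.79, 0.049 to 0.32, -0.62 to -0.31 and 0.096 to 0.49. Alternatives for the ratio of row 27 to row 28 were not run, since row 27 had no counts to form it.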
